A study of Mus musculus with 12 samples.

Results

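Transcripts of 10 genes that mark Cajal-Retzius cells and subplate neurons were measured in the embryonic mouse cortex after deletion of Egfr, which encodes the epidermal growth factor receptor. The 10 genes were chosen by name (Reln, Trp73, Lhx1, Lhx5, Calb2, Ndnf, Nxph4, Cplx3, Nr4a2 and Ccn2), and each was found as 1 of the 55357 genes in the count files. Knockout embryos (genotype label NcreEGFRFF) had floxed Egfr on both alleles and a Nestin-Cre transgene, with Cre made in neural progenitors. Control embryos (label EGFRF+) carried 1 floxed and 1 intact allele. Cortex was dissected together with the hippocampal formation at E17.5 and cut into rostral and caudal parts, which gave 12 libraries in 4 groups of 3: knockout rostral and knockout caudal (titled embryos 5, 2 and 7), and control rostral and control caudal (titled embryos 1, 3 and 9). The knockout titles name Cre and the control titles do not, so an effect of Egfr loss and an effect of the Cre transgene cannot be told apart.

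Cajal-Retzius cells are early-born neurons of the marginal zone, under the pia. They come from the cortical hem, the septum and the border of the pallium, and many die after birth. They secrete reelin, which binds the receptors Vldlr and Lrp8 on migrating neurons and leads to phosphorylation of the adaptor Dab1, and in its absence cortical layers form in the wrong order. Subplate neurons lie below the cortical plate, where they receive early thalamic input, and those that survive form layer 6b.

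Total counts per library lay between 25223733 and 30383672, and the levels below are counts scaled to a library total of 1e+06 (CPM). Egfr stood at 3.60 to 7.33 CPM in the 6 knockout libraries and at 19.2 to 41.6 CPM in the 6 control libraries. Other transcripts went against the titles. Nr2f1, whose product patterns cortical areas in a high caudal to low rostral gradient, ranged from 97.1 to 340 CPM in the 3 knockout rostral and from 71.3 to 348 CPM in the 3 knockout caudal libraries, against 50.7 to 348 CPM in the control rostral and 58.6 to 373 CPM in the control caudal libraries. Control libraries labelled rostral 1 and 3 each held transcripts of both sexes, with Xist at 229.75 and 278.27 CPM and 4 Y-linked genes together at 94.6 and 92.0 CPM. Their caudal partners differed from them, with Y-linked transcripts at 178 CPM and Xist at 0 in caudal 1. Caudal 3 had Xist at 488 CPM and Y-linked transcripts at 0.0369 CPM. Titled partners were opposite in sex transcripts in knockout embryos 5 and 2 and control embryo 9. There the rostral library held Y-linked transcripts (152, 162 and 172 CPM) with Xist at no more than 0.146 CPM. The caudal library held Xist (324, 426 and 253 CPM) with Y-linked transcripts at no more than 1.73 CPM. Only the partners of knockout embryo 7 were alike, with Xist at 450 and 376 CPM and Y-linked transcripts at no more than 0.0179 CPM. A titled sum or a difference within a titled embryo rests on the titles alone. Rostral, caudal and embryo numbers are therefore given as labelled, n counts libraries or titled sums rather than embryos, and each p-value reflects only how these vary.

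RefSeq (GRCm38.p6, a build other than the GRCm39 of the counts) held the start sites of 5 of the 10 members. The 250 bases upstream of the starts are printed for the 4 of them that were highest in the same library of each genotype, as described below, all read on the minus strand; Trp73 has an upstream and a downstream start. Capitals mark GGGCGG or its reverse complement CCGCCC (the GC box) and CAGCTG (an E-box).

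Reln, chr5:22344706-22344955: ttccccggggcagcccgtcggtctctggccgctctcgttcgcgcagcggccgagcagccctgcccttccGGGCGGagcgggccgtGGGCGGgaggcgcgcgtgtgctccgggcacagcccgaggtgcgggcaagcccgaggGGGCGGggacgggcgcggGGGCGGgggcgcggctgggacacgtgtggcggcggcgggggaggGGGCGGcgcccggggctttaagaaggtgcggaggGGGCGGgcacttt

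Trp73 upstream start, chr4:154139876-154140125: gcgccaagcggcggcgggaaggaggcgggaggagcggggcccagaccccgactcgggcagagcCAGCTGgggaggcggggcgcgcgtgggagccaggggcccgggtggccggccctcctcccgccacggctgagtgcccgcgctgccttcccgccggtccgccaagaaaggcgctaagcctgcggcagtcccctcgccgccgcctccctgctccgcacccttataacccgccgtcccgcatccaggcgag

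Trp73 downstream start, chr4:154097174-154097423: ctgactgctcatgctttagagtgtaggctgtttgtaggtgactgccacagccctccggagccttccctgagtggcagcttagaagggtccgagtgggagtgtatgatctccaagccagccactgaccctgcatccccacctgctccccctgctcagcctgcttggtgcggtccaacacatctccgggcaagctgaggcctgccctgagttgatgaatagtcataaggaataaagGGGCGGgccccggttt

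Lhx1, chr11:84525535-84525784: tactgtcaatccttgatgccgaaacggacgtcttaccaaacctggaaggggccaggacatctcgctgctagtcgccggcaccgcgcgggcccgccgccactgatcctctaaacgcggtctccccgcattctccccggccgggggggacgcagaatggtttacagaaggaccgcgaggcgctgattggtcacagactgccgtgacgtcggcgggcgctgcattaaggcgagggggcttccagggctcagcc

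Nr4a2, chr2:57124004-57124253: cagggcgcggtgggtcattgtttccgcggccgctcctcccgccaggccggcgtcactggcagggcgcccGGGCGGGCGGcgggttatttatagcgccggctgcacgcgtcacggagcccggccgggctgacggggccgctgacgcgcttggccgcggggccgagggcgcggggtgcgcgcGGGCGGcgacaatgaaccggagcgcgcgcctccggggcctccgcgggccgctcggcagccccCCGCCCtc

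Of 5 motifs searched on both strands, the GC box occurred 6 times in the Reln window, 4 times in that of Nr4a2, where the first 2 matches overlap, and 1 time at the downstream start of Trp73. It is present in 32.7% of the 32851 RefSeq promoter windows of this length. CAGCTG was found at the upstream start of Trp73 and is present in 13% of windows. The homeodomain core TAATTA was in none of these 5 windows and is present in 4.84% of all. The nuclear receptor half-site AGGTCA was in none of the 5 and is present in 14% of all. The window of Cplx3, the other member with a start site, is not printed and held both AGGTCA and CAGCTG. The cAMP response element TGACGTCA was in none of the 5 and is present in 1.55% of all. No motif was shared by all 4 genes. Counts per gene do not tell the 2 starts of Trp73 apart.

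Among the Cajal-Retzius genes, Reln (ENSMUSG00000042453.15, GRCm39 chromosome 5, 22089452 to 22549700), which encodes the secreted reelin glycoprotein, was at 201, 516 and 144 CPM in knockout rostral 5, 2 and 7, and at 103, 49.2 and 158 CPM in knockout caudal 5, 2 and 7. Control rostral 1, 3 and 9 held 273, 707 and 45.5 CPM, and control caudal 1, 3 and 9 held 120, 141 and 256 CPM. One rostral library of each genotype was far above the others, and the range within a genotype was 10.5-fold in knockout and 15.5-fold in control libraries, so that the genotypes overlapped widely. The spans of 3 other genes overlap that of Reln on its strand. Fragments assigned to more than 1 gene were split into fractions by the authors' counting, and Reln's count was not a whole number in 4 libraries. How much of it was shared with these genes was not tested.

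Trp73 (ENSMUSG00000029026.18, chromosome 4, 154140706 to 154224665) encodes p73, a transcription factor of the p53 family that marks Cajal-Retzius cells of hem and septal origin. It was at 4.17, 20.1 and 6.50 CPM in knockout rostral 5, 2 and 7, at 4.57, 0.802 and 5.58 CPM in knockout caudal 5, 2 and 7, at 6.26, 25.1 and 0.335 CPM in control rostral 1, 3 and 9, and at 4.71, 2.69 and 10.8 CPM in control caudal 1, 3 and 9. Its range was 25.1-fold over the knockout and 74.8-fold over the control libraries. The libraries at its extremes were those of Reln, knockout rostral 2 and control rostral 3 at the top and knockout caudal 2 and control rostral 9 at the bottom.

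Lhx1 and Lhx5 encode LIM-homeodomain transcription factors present in Cajal-Retzius cells. Lhx1 (ENSMUSG00000018698.16, chromosome 11, 84409110 to 84416361) was at 0.586, 3.90 and 1.36 CPM in knockout rostral, 1.00, 0.0764 and 1.17 CPM in knockout caudal, 0.553, 3.67 and 0.0559 CPM in control rostral and 1.31, 0.258 and 2.15 CPM in control caudal libraries, in the same order of embryos. Lhx5 (ENSMUSG00000029595.10, chromosome 5, 120569764 to 120579288) was at 1.03, 5.23 and 1.32 CPM, at 1.30, 0.115 and 0.723 CPM, at 1.64, 5.31 and 0.0932 CPM and at 1.48, 0.553 and 1.77 CPM in the 4 groups in that order. Both genes had the same highest and lowest library of each genotype as Trp73, and the genotypes overlapped. The lowest values rest on few counts. In knockout caudal 2 and control rostral 9 these were 2 and 1.5 for Lhx1, and 3 and 2.5 for Lhx5.

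Ndnf (ENSMUSG00000049001.6, chromosome 6, 65648574 to 65689310), a secreted factor of Cajal-Retzius cells and, later, of layer 1 interneurons, was at 19.3, 60.2 and 13.4 CPM in knockout rostral, 10.8, 4.62 and 13.7 CPM in knockout caudal, 22.4, 58.9 and 2.87 CPM in control rostral and 5.67, 10.7 and 20.9 CPM in control caudal libraries. Its extremes lay in the same 4 libraries. Calb2 (ENSMUSG00000003657.10, chromosome 8, 110864134 to 110894842) encodes calretinin, a calcium-binding protein that is also made by interneurons and thalamic neurons. It was at 23.7, 27.4 and 21.8 CPM in knockout rostral, 26.4, 23.3 and 13.4 CPM in knockout caudal, 33.6, 24.1 and 26.3 CPM in control rostral and 12.1, 29.7 and 14.9 CPM in control caudal libraries. It did not share the order of the other Cajal-Retzius genes, since control rostral 3 was not its highest library and control rostral 9 lay above control rostral 3.

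The subplate genes differed among themselves. Nr4a2 (ENSMUSG00000026826.14, chromosome 2, 56996842 to 57014015), an orphan nuclear receptor of subplate neurons and the claustrum, was at 7.31, 37.3 and 6.25 CPM in knockout rostral, 6.68, 5.19 and 8.79 CPM in knockout caudal, 9.20, 25.2 and 8.76 CPM in control rostral and 12.6, 6.71 and 11.3 CPM in control caudal libraries. Its 2 highest libraries were those of the Cajal-Retzius genes, while the other 10 lay between 5.19 and 12.6 CPM. Nxph4 (ENSMUSG00000040258.7, chromosome 10, 127361342 to 127370428), a secreted neurexophilin of the subplate, was at 18.3, 12.4 and 13.01 CPM in knockout rostral, 17.1, 17.3 and 19.0 CPM in knockout caudal, 20.7, 14.7 and 22.3 CPM in control rostral and 16.9, 15.9 and 18.9 CPM in control caudal libraries. It was lowest within each genotype in knockout rostral 2 and control rostral 3, where Reln was highest, although its whole range was 1.80-fold.

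Ccn2 (ENSMUSG00000019997.12, chromosome 10, 24471340 to 24474581), a matricellular protein made by subplate neurons and by cells of vessels, was at 9.59, 5.59 and 4.86 CPM in knockout rostral, 7.44, 6.57 and 7.26 CPM in knockout caudal, 7.75, 7.85 and 4.62 CPM in control rostral and 5.25, 4.28 and 8.84 CPM in control caudal libraries. No library stood apart. Cplx3 (ENSMUSG00000039714.10, chromosome 9, 57507275 to 57513564), a complexin that binds the SNARE complex at synapses and marks subplate neurons after birth, was at 0 in 5 of 6 knockout and 2 of 6 control libraries. It had 2 counts in all knockout and 6 counts in all control libraries together. These counts correspond to 0.0120 CPM over the knockout and 0.0381 CPM over the control libraries. For scale, a count of 0 would allow up to 3 counts over a genotype, counting error only. That limit is 0.0181 CPM in knockout and 0.0191 CPM in control libraries. Both levels were too low for any test, so no difference between the genotypes is read from them.

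**Figure D1:**
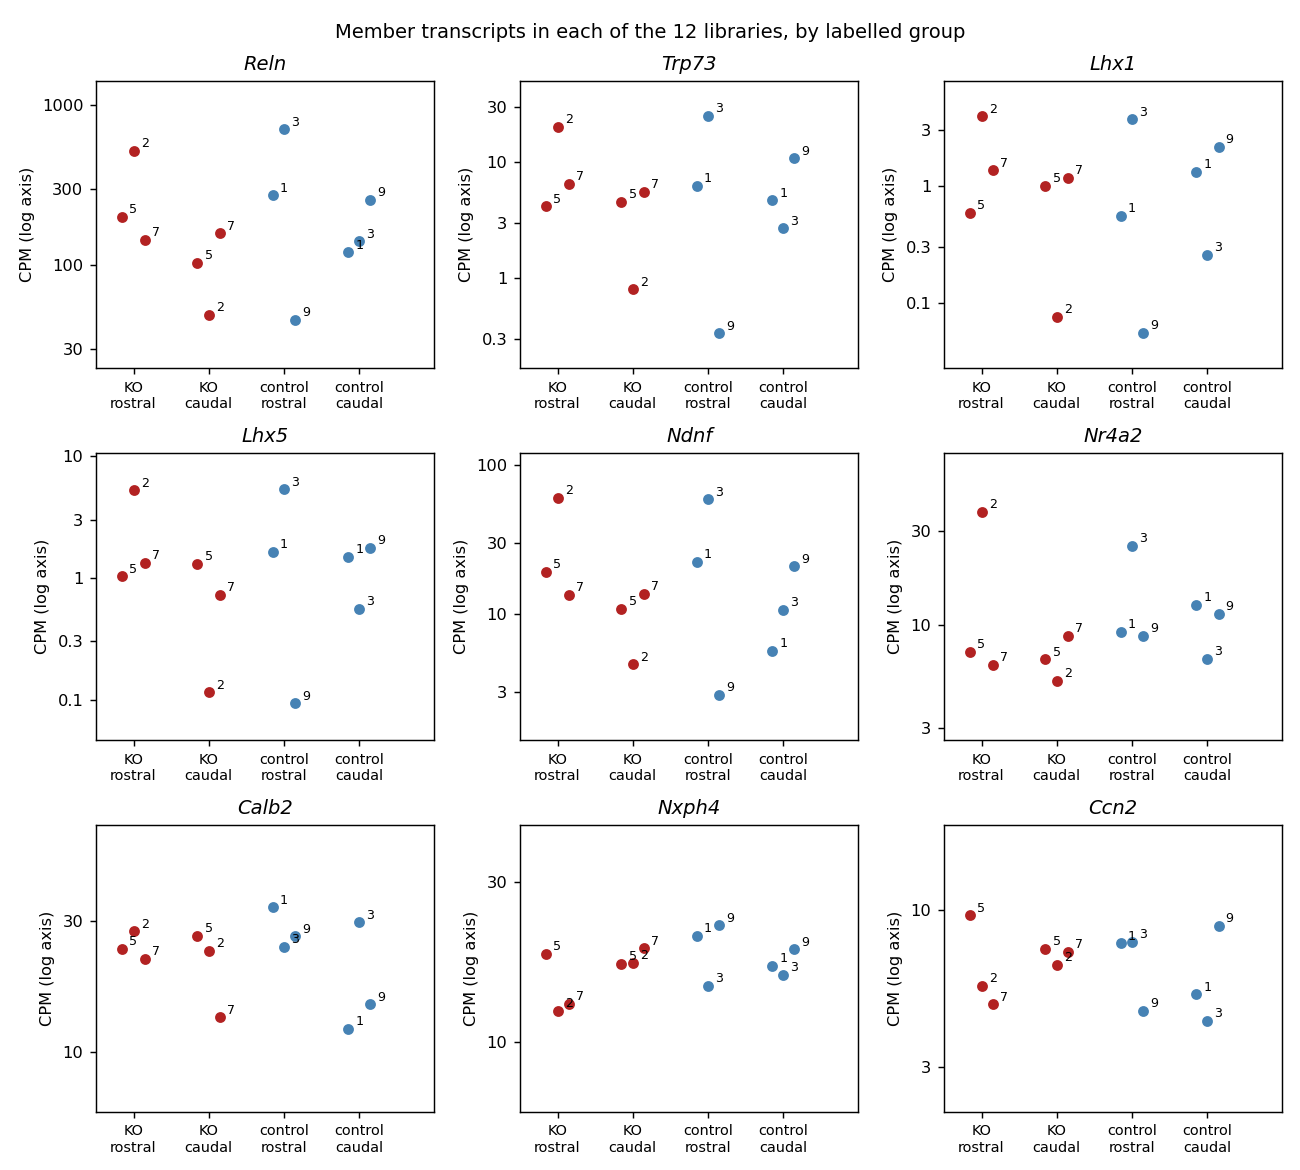
CPM (log axis) of 9 members in each library, with 1 panel per gene, the labelled groups along the horizontal axis and each point numbered by its titled embryo. Points of knockout rostral 2 and control rostral 3 are the highest of their genotype for Reln, Trp73, Lhx1, Lhx5, Ndnf and Nr4a2, while Calb2, Nxph4 and Ccn2 stay within a range of 2.77-fold.

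Per kilobase of exon, the median level over the 12 libraries was 13.7 CPM per kb for Calb2, 10.3 for Nxph4, 6.37 for Reln, 2.42 for Ccn2, 2.16 for Nr4a2, 1.34 for Ndnf, 0.929 for Trp73, 0.487 for Lhx5, 0.267 for Lhx1 and 0 for Cplx3. The ranges of neighbours in this order overlapped in every case. Reln, for example, ran from 1.92 to 29.8 CPM per kb, past both Nxph4 (7.39 to 13.3 CPM per kb) and Ccn2 (1.495 to 3.35 CPM per kb).

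The spread over the 12 libraries differed between the members. On the log2(CPM + 0.5) scale the SD was 1.42 for Trp73, 1.27 for Ndnf, 1.18 for Reln, 1.03 for Lhx5, 0.99 for Lhx1 and 0.81 for Nr4a2. It was 0.46 for Calb2, 0.36 for Ccn2 and 0.25 for Nxph4, against a median of 0.18 over 14795 genes with a mean of at least 1 CPM. Of these genes, 0.270% had a larger SD than Trp73, 1.74% a larger one than Nr4a2, 8.62% than Calb2, 15.5% than Ccn2 and 30.7% than Nxph4. Calb2 and Ccn2 thus varied less than the first 6 members but more than most genes. The 0.5 CPM added before the log lowers the SD of genes near 1 CPM, such as Lhx1 and Lhx5. In CPM alone, the highest library was 74.8 times the lowest for Trp73, 69.7 for Lhx1, 57.0 for Lhx5, 21.0 for Ndnf, 15.5 for Reln and 7.19 for Nr4a2. The order of these 6 members thus depends on the scale. In bulk tissue, fewer cells of a type and less RNA per cell cannot be told apart.

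**Figure D2:**
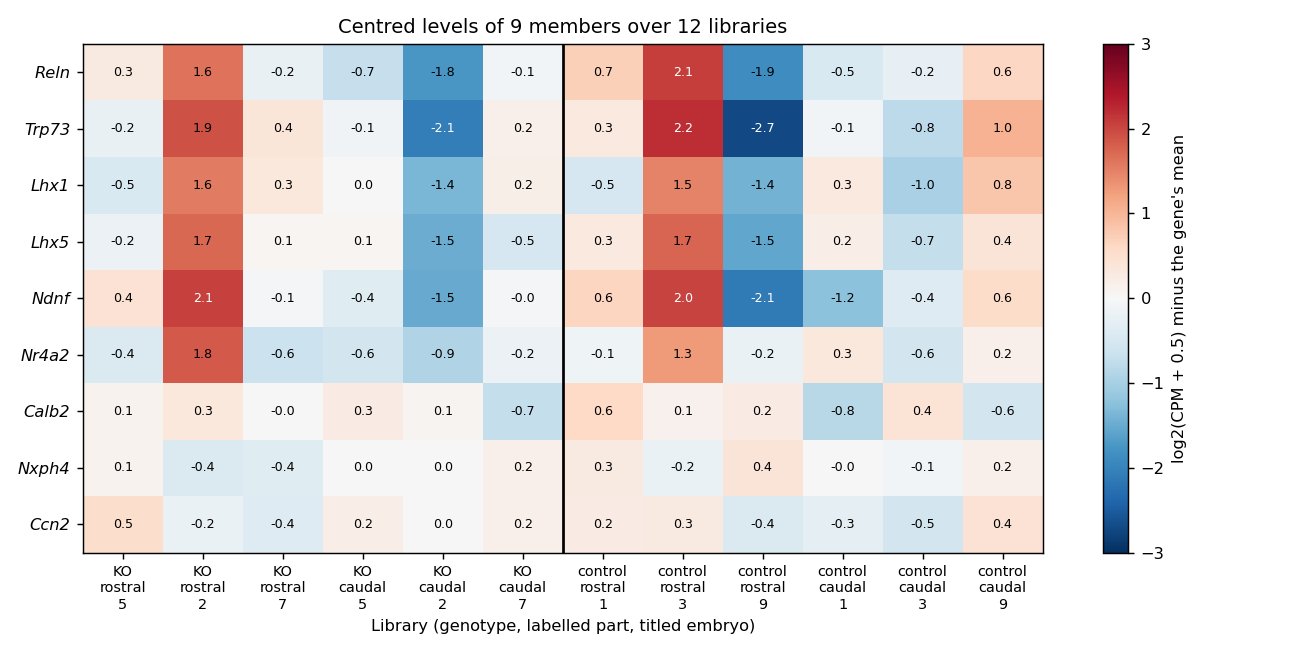
Each cell gives log2(CPM + 0.5) of a gene in a library minus that gene's mean over the 12 libraries, with knockout libraries left of the black line and control libraries right of it. The upper 6 genes are highest in knockout rostral 2 and control rostral 3, and the lower 3 stay close to their means.

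The likeness of 2 genes was measured as the root mean square difference (RMS) of their centred log2(CPM + 0.5) over the 12 libraries, which all genes share together with their depth. Among the more variable members, Reln and Ndnf were closest (0.302), followed by Lhx1 and Lhx5 (0.368), Reln and Lhx5 (0.427), Reln and Trp73 (0.472) and Trp73 and Lhx5 (0.5002). The 0.5 CPM added also shrinks the differences of Lhx1 and Lhx5. Members that varied little could be close as well, as Nxph4 and Ccn2 were (0.356). Nr4a2 lay at 0.560 from Lhx5 and at 0.964 from Trp73, which was farther than the median gene lay from Nr4a2 (0.778) though nearer than the median gene lay to Trp73 (1.36). Nxph4 was at 1.51 and Calb2 at 1.48 from Trp73, each farther than that median gene.

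Among 12571 other genes, those nearest to Trp73 were Mctp1 (0.470), Reln, Lhx5, Grin2a (0.526) and Ndnf (0.528), so that 3 of the 5 were members. Mctp1 encodes a calcium-binding membrane protein, and Grin2a an NMDA receptor subunit. Nearest to Reln were Ppp2r2c (0.293), a regulatory subunit of protein phosphatase 2A, then Ndnf, the kinase gene Camk2b (0.404), the potassium channel gene Kcnk9 (0.406) and the synaptic vesicle gene Sv2b (0.410). Nearest to Nxph4 were Rcor2, B3glct, Zswim1, Zfp64 and Xkr7 (0.114 to 0.131), none of them a member, where the median gene was at 0.285. No neighbours were sought for Cplx3, which was near 0.

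To compare the genotypes irrespective of part, rostral and caudal counts were added up per titled embryo and compared by edgeR's quasi-likelihood test. None of the 9 tested members was called at an adjusted p under 0.05, against 0.0317% of all 18935 genes tested (6 genes). At an unadjusted p under 0.05 the count of members was again 0, against 3.4% of all genes, and DESeq2 called 0 members and 32 genes (0.169%). The log2 fold change of knockout over control was -0.33 for Reln (SE 0.49, 95% interval -1.57 to 0.91), -0.17 for Trp73 (SE 0.50, interval -1.42 to 1.07), 0.10 for Lhx1 (SE 0.39), -0.07 for Lhx5 (SE 0.52), 0.08 for Ndnf (SE 0.56) and 0.01 for Nr4a2 (SE 0.49). The intervals of Trp73, Lhx5, Ndnf and Nr4a2 reach beyond a 2-fold difference in both directions. That of Reln includes a 2-fold decrease but not a 2-fold increase, and that of Lhx1 (-0.81 to 1.01) a 2-fold increase but not a 2-fold decrease.

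The other 3 tested members were bounded more closely. The log2 fold change was -0.02 for Calb2 (SE 0.14, interval -0.36 to 0.31), -0.15 for Nxph4 (SE 0.12, interval -0.43 to 0.13) and 0.12 for Ccn2 (SE 0.15, interval -0.21 to 0.46). For these 3 genes a 2-fold difference in the sums lay outside the interval. All 9 adjusted p-values were 1.00 by edgeR's quasi-likelihood test, and no member's knockout sums lay clear of the control sums, against 8.29% of all genes. Without control libraries rostral 1 and 3, an alternative chosen after the data were seen that takes the other 10 libraries as separate samples, the direction of Reln, Trp73 and Lhx5 turned, with log2 fold changes of 0.97, 2.10 and 2.11, and none was called.

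In libraries labelled rostral, 0 of 9 members were called, as were 0% of 17131 genes. At an unadjusted p under 0.05, 180 genes (1.05%) passed by edgeR, and DESeq2 called 4 (0.0233%), with 0 members in each count. The log2 fold change of knockout over control ran from -0.37 for Nxph4 (SE 0.22) to 0.52 for Lhx1 (SE 1.15), and that of Reln was -0.20 (SE 0.89). With control rostral 1 and 3 left out, again chosen after the data were seen, the single control was rostral 9, the control library lowest in Reln, and Reln's value was 2.65. In libraries labelled caudal, 0 of 9 members were called, against 0.0472% of 16964 genes (8 genes). None had an unadjusted p under 0.05 by edgeR, against 5.13% of genes, and DESeq2 called none, against 0.454% of genes. There the 5 more variable Cajal-Retzius genes had negative values, -0.72 for Reln (SE 0.48), -0.72 for Trp73 (SE 0.75), -0.71 for Lhx1 (SE 0.90), -0.79 for Lhx5 (SE 0.71) and -0.35 for Ndnf (SE 0.56). This direction was not particular to them. Of the marker lists described below, 7 of 8 cortical hem genes were negative (median -0.76). So were 10 of 11 tested vessel and meningeal genes (median -0.46) and 12 of 13 interneuron genes (median -0.30). Of 7 projection neuron genes, 6 were positive (median 0.20). The member with the smallest p was Nr4a2 (log2 fold change -0.55, SE 0.27, interval -1.19 to 0.09, edgeR adjusted p = 1.00). Knockout and control libraries overlapped for every member in each labelled part, against 6.21% of genes that did not overlap in the rostral and 10.1% in the caudal libraries.

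**Figure D3:**
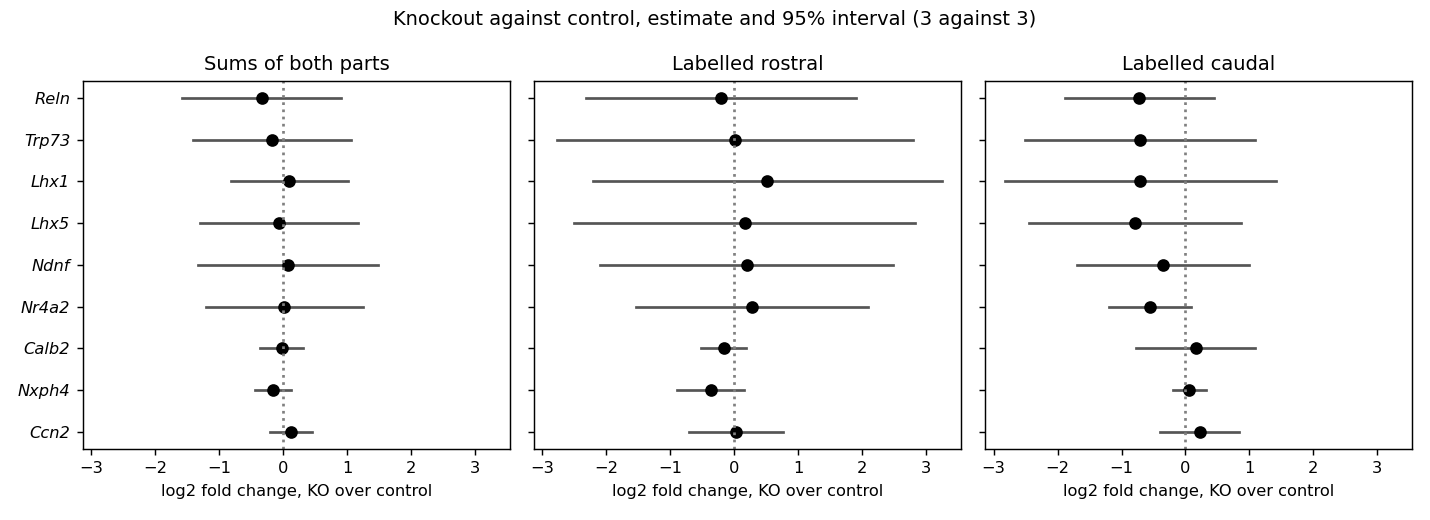
Points give the log2 fold change of knockout over control and lines its 95% interval, for the titled sums and for the libraries labelled rostral and caudal (3 against 3 in each panel). Every interval includes 0, and those of Calb2, Nxph4 and Ccn2 are the narrowest in the sums.

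Caudal was compared with rostral over all 12 libraries as labelled, averaged over both genotypes. The 6 members with the larger spread had negative values, and none was called. Ndnf had a log2 difference of -1.38 (SE 0.63, adjusted p = 0.509), Lhx5 of -1.31 (SE 0.76), Reln of -1.18 (SE 0.57, adjusted p = 0.522), Trp73 of -1.10 (SE 0.78), Nr4a2 of -0.86 (SE 0.46) and Lhx1 of -0.75 (SE 0.82) by edgeR's quasi-likelihood test. Calb2 was at -0.36 (SE 0.23), Nxph4 at 0.09 (SE 0.13) and Ccn2 at 0.01 (SE 0.22). Of all 17734 genes 0% were called by edgeR, 1765 (9.95%) had an unadjusted p under 0.05 and DESeq2 called 83 (0.468%), with 0 members among either. Caudal and rostral libraries overlapped for every member, against 0.361% of genes that did not overlap.

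With each titled embryo left out in turn, the log2 difference stayed negative for Reln (-1.64 to -0.58), Trp73 (-1.74 to -0.091), Lhx5 (-1.89 to -0.42), Ndnf (-1.94 to -0.76) and Nr4a2 (-1.17 to -0.12), and crossed 0 for Lhx1 (-1.35 to 0.58). Without control rostral 1 and 3, which leaves the control rostral library with the lowest Reln, it was 0.24 for Reln, 1.35 for Trp73, 1.31 for Lhx1, 1.11 for Lhx5, 0.24 for Ndnf and -0.53 for Nr4a2. Within titled embryos, Reln was lower in the caudal than in the rostral library by 3.38 in knockout embryo 2 and higher by 2.48 in control embryo 9 on the log2(CPM + 0.5) scale, and Trp73 was lower by 3.98 and higher by 3.76. Reln was lower in the caudal library in 2 of 3 knockout and 2 of 3 control embryos. The highest libraries of these 6 members were labelled rostral, and Nr2f1 was at 340 and 348 CPM in them. Nr2f1 was at 71.3 and 50.7 CPM in knockout caudal 2 and control rostral 9, where Reln was lowest. Reln did not follow Nr2f1 throughout. Knockout rostral 5 and control rostral 1 were second in Reln (201 and 273 CPM) with Nr2f1 at 97.1 and 78.9 CPM. Knockout caudal 5 and control caudal 1 had Reln at 103 and 120 CPM with Nr2f1 at 248 and 343 CPM. The part of the labelling in these values was not tested. The knockout effect on the caudal-rostral difference had an adjusted p of 0.998 by edgeR for each of the 9 members, and 0% of genes were called, with 486 (2.74%) at an unadjusted p under 0.05 and 0 by DESeq2.

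**Figure D4:**
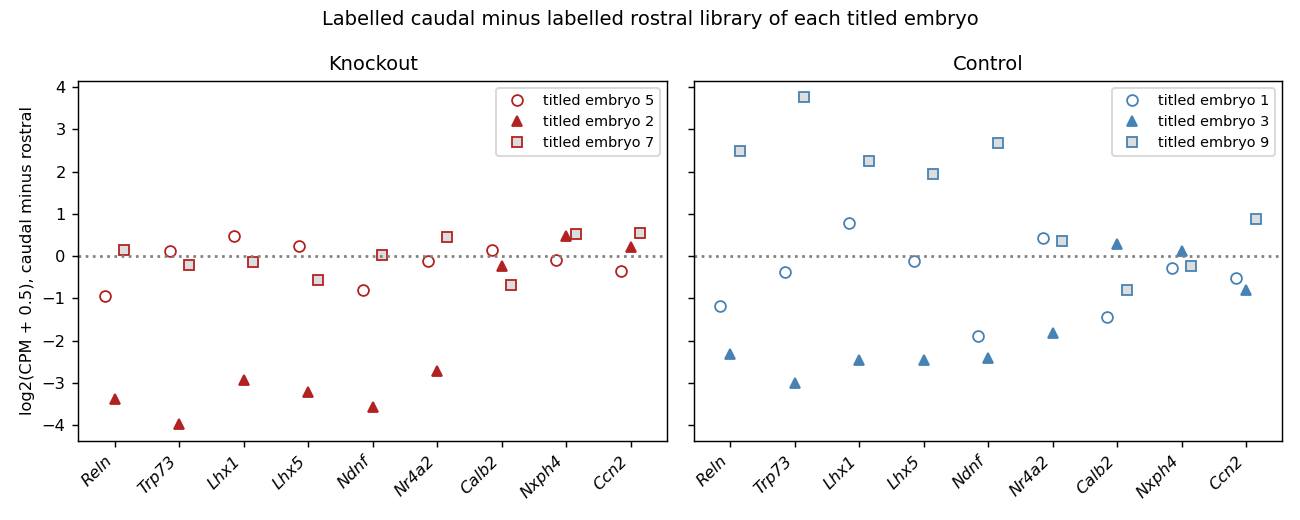
Each point is the log2(CPM + 0.5) of the library labelled caudal minus that of the library labelled rostral of 1 titled embryo, with knockout embryos in the left and control embryos in the right panel. Knockout embryo 2 and control embryo 3 lie far below 0 and control embryo 9 far above it for Reln, Trp73, Lhx1, Lhx5 and Ndnf, while Nxph4 stays near 0.

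Of the reelin pathway downstream of Reln, the summed level of 21 genes, from the receptors through Dab1 and its kinases to integrins and ephrins, was between 3640 and 4583 CPM in knockout and between 4176 and 4516 CPM in control libraries. Some single genes varied more than this sum and others, such as Fyn, did not. Dab1 was between 138 and 298 CPM in knockout libraries and between 201 and 327 CPM in control libraries, and the receptor gene Vldlr was at 47.5 to 88.6 CPM in knockout libraries, against 51.6 to 75.6 CPM in control libraries. The lowest sum and the lowest Dab1 both lay in knockout rostral 7, where Lrp8, Pafah1b1, Afdn and other genes of the list were lowest too. Mitochondrial genes took 7.25% of the counts of that library, the largest share of any library. The part of knockout rostral 7 in the knockout ranges was not tested. Of the 21 genes, 10 were highest in knockout rostral 2 and none in control rostral 3. Some of these peaks were small, as for Fyn, at 253 to 303 CPM over all libraries. The share of all genes highest in knockout rostral 2 was not computed. Dab1 and Vldlr were singled out after their values were seen. In the titled sums 0 of 21 were called, 5 had a positive and 16 a negative value, and the median log2 fold change was -0.03, against 0.00 over all genes tested. The members with the smallest p were the receptor gene Lrp8, with a log2 fold change of 0.07 (SE 0.05), and the integrin subunit gene Itga3, with one of 0.11 (SE 0.10), and both had an edgeR adjusted p of 1.00. In the caudal-rostral comparison 0 of 21 were called, with a median log2 difference of 0.04, and Lrp8 was at 0.18 (SE 0.07) and Itgb1 at 0.14 (SE 0.05).

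Of 11 other Cajal-Retzius markers, 0 were called in the sums, and 2 had a positive and 9 a negative value (median -0.23), with Ebf1 at -0.85 and Zic4 at -0.52. None was called between caudal and rostral libraries (median -0.13), with Car10 at -1.35 and Cacna2d2 at -0.64. Over the 12 libraries, 5 of the 11 were highest in control rostral 3 (Nhlh2, Car10, Ebf3, Cacna2d2 and Cxcr4), 1 in knockout rostral 2 (Barhl2) and 5 in control caudal 3 (Ebf1, Ebf2, Zic1, Zic2 and Zic4). Nhlh2, a neuronal transcription factor, reached 41.6 CPM in knockout and 44.9 CPM in control libraries. Ebf1 and Zic1, transcription factors also found outside Cajal-Retzius cells, were at 85.0 and 161 CPM in control caudal 3. The summed level of the list was 107 to 258 CPM in knockout and 130 to 360 CPM in control libraries. It was highest in knockout caudal 2 and control caudal 3 and stood at 261 CPM in control rostral 9. The sum, mostly Zic1 and Ebf1 in control caudal 3, thus did not follow Reln, which was lowest in knockout caudal 2 and control rostral 9. Single markers differed. Car10, Nhlh2 and Ebf3 lay at an RMS of 0.618, 0.710 and 0.887 from Trp73, where the median gene lay at 1.36. Ebf1, Zic1 and Zic4 lay at 2.48, 2.33 and 2.30, and the remaining markers between 1.04 and 1.41. These genes were singled out after their values were seen.

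Of 15 other subplate and layer 6b markers, 0 were called in the sums (8 positive and 7 negative, median 0.03), with Tmem163 at 0.23 and Drd1 at -0.38. Between caudal and rostral libraries 0 of 15 were called by edgeR, 3 were positive and 12 negative (median -0.10). Hs3st4, a heparan sulfate sulfotransferase of deep layers, was at -1.91 (SE 0.45, edgeR adjusted p = 0.422), and DESeq2's Wald test gave it an adjusted p of 0.0333. Cdh18 was at -1.12 (SE 0.30, edgeR adjusted p = 0.43). Their summed level was 289 to 392 CPM in knockout and 307 to 397 CPM in control libraries.

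Nr4a2 and Ccn2 also belong to groups that respond to signals. Of 8 early response genes 0 were called in the sums, 7 were negative and 6 had an unadjusted p under 0.05, where 3.4% of all genes did (median log2 fold change -0.58, against 0.00 over all genes), while Nr4a2 was at 0.01. Of 6 YAP targets other than Ccn2, 5 were tested and 0 were called (median -0.08).

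Markers of other cell types that hold member transcripts moved with some of the values. Of 8 cortical hem genes, 6 were highest in knockout rostral 2 or control rostral 3, the libraries with the most Reln and Trp73. Their summed level was 42.8 to 83.1 CPM in knockout libraries, highest in rostral 2, and 45.4 to 81.9 CPM in control libraries, highest in caudal 9, with 77.5 CPM in rostral 3. Choroid plexus and multiciliated cell markers summed to 6.46 to 19.9 CPM in knockout and 7.29 to 67.3 CPM in control libraries, highest in control rostral 3, where Ttr was at 49.5 CPM. The claustrum list, which bears on Nr4a2, had its highest sums in knockout rostral 2 (1166 CPM) and control rostral 3 (1067 CPM). Its lows were 745.5 CPM in knockout and 724 CPM in control libraries, and most of each sum was Gng2. Of its 6 genes, only Gng2 and Ntng2 were highest in knockout rostral 2 or control rostral 3. Gnb4 was highest in control rostral 1, Synpr in knockout rostral 7, Lxn in control caudal 9 and Oprk1 in control rostral 9. The share of all genes highest in knockout rostral 2 or control rostral 3 was not computed. The part of these cell types in the results was not tested.

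Of the 4 mitral cell markers, Tbx21 and Cdhr1 were at no more than 0.286 and 0.369 CPM in any library and Doc2g at 0.382 to 1.70 CPM, while Eomes, also a gene of cortical intermediate progenitors, was at 179 to 386 CPM. The list summed to 199 to 387 CPM in knockout and 180 to 322 CPM in control libraries. Of the 7 diencephalic markers, Gbx2, Irx1, Irx2 and Irx3 were at no more than 0.553 CPM, Tcf7l2 at 6.33 to 12.2 CPM and Slc17a6 at 61.3 to 118 CPM. Lhx9 was at 0.586 to 23.0 CPM in knockout libraries, against 0.885 to 19.4 CPM in control libraries, and was highest in knockout rostral 2, where Reln was at its knockout maximum. The list summed to 89.4 to 128 CPM in knockout and 89.5 to 112 CPM in control libraries. The part of Lhx9-expressing tissue in the results was not tested. Vessel and meningeal markers summed to 61.5 to 158 CPM in knockout and 70.1 to 180 CPM in control libraries, highest in knockout rostral 7 and control caudal 9. Ccn2 was lowest of the knockout libraries in rostral 7 and highest of the control libraries in caudal 9. Markers of cortical projection neurons summed to 1865 to 2959 CPM in knockout and 2256 to 2983 CPM in control libraries.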

How the data were processed

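Per the labels' protocols, libraries were made by mRNA capture and read from both ends. The submitters' processing notes name STAR 2.7.8a, the build GRCm39 and featureCounts 2.0.3. Per the file headers, counting used the GENCODE M28 annotation and the reverse strand, with multi-mapped or multi-gene fragments split into fractions. What the authors deposited are thus estimated counts (expected counts) per gene, not normalized; 21.6% to 23.9% of the genes detected per library were not whole numbers. Exon lengths in bases are those the deposited files list.

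The members, gene lists and tests were chosen with earlier results of these data known. CPM were computed from the counts and each library's total. Rounded counts went into edgeR 4.0.16 under R 4.3.3 (TMM, filterByExpr, robust quasi-likelihood fit, Benjamini-Hochberg adjusted p under 0.05 over all genes tested). The SE is the log2 fold change over the square root of F. The named genes are all members, up to 4 called genes per list and comparison or the 2 with the smallest p, and the 5 genes most like Trp73, Reln and Nxph4 (mean of at least 1 CPM, pseudocount 0.5); not all are printed. The tests were also run on simulated counts, drawn as independent libraries with the spread typical of genes of like level. The more variable members spread more than that, so this run does not show how the tests perform for them.

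Titles give both parts of an embryo 1 number. Over 1000 variable autosomal genes, the deviations of titled partners from their group means correlated at -0.700 to -0.255 (0 of 6 above 0.1), and those of the 12 other rostral-caudal combinations within a genotype at -0.234 to 0.721, so no block was used in the main comparisons. Libraries of 1 group differed by more than sampling noise (chi-square per degree of freedom 20.1 to 181), and all were kept. Mitochondrial genes took 1.96% to 7.25% of counts. The alternatives tried were DESeq2 1.42.0, DESeq2 size factors in edgeR, no filter, each titled embryo left out, all 12 libraries in 1 fit or as separate samples, the title number as a term, the titled embryo as a block, and fits without control rostral 1 and 3.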

Additional observations from a re-analysis of the deposited data

Results flagged for a closer look

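In each genotype, the 6 libraries were checked for a value far from the rest, for 9 members and thus 18 groups. A value was marked where its gap to the next exceeded 0.625 of the range. Chance marks about 1 in 20 such groups if the values are normal and come from 1 population. These groups mix both labelled parts and span wide ranges in CPM, so that rate need not hold here. In all, 10 values stood apart, each of them the highest of its genotype. In knockout rostral 2 these were Reln at 516 CPM, Trp73 at 20.1 CPM, Lhx1 at 3.90 CPM, Lhx5 at 5.23 CPM, Ndnf at 60.2 CPM and Nr4a2 at 37.3 CPM. In control rostral 3 they were Reln at 707 CPM, Lhx5 at 5.31 CPM, Ndnf at 58.9 CPM and Nr4a2 at 25.2 CPM. The genes share these libraries, so the 10 values are not separate observations. Control rostral 3 is 1 of the 2 libraries with transcripts of both sexes. Knockout rostral 2 held Y-linked transcripts (162 CPM over 4 genes) with Xist at 0.0699 CPM.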

How the results depend on the processing

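No member was called in any comparison under any of the alternatives run; over 414 refitted values of 9 members in 4 comparisons, the lowest adjusted p was 0.235 and 60 had the other sign from the main value, all uncalled. The counts of all genes called moved more. With DESeq2's Wald test they were 4 in rostral libraries, 77 in caudal libraries, 32 in the sums and 83 between caudal and rostral. With no filter on low counts they were 2, 57, 113 and 2 in that order, and with all 12 libraries in 1 fit 2 in rostral and 3 in caudal libraries. With each titled embryo left out in turn, they ran from 2 to 8 in caudal libraries, from 2 to 21 in the sums, and from 0 to 6 both between caudal and rostral and for the interaction. The cause was not tested.

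With each titled embryo left out, some log2 values crossed 0. In rostral libraries these were Reln (-0.93 to 0.89), Trp73 (-0.91 to 1.68), Lhx1 (-0.47 to 2.7045), Lhx5 (-0.93 to 1.5998), Ndnf (-0.72 to 1.34), Nr4a2 (-1.03 to 0.94) and Ccn2 (-0.31 to 0.20). In caudal libraries they were Trp73 (-1.16 to 0.010), Calb2 (-0.084 to 0.65) and Ndnf (-0.69 to 0.27). In the sums they were Reln (-0.71 to 0.21), Trp73 (-0.60 to 0.39), Lhx1 (-0.31 to 0.47), Lhx5 (-0.63 to 0.45), Calb2 (-0.10 to 0.12), Ndnf (-0.45 to 0.70), Nr4a2 (-0.72 to 0.29), Ccn2 (-0.057 to 0.21) and Zic4 (-0.82 to 0.0042). Between caudal and rostral they were Lhx1 (-1.35 to 0.58) and Ccn2 (-0.27 to 0.17). With the title number 4858 or 4692 as a term, Trp73 was at -0.092 and Ccn2 at -0.023 in rostral libraries and Nr4a2 at -0.051 in the sums. With all 12 libraries as separate samples, Lhx1 was at -0.0896, Ndnf at -0.071 and Nr4a2 at -0.13. Without control rostral 1 and 3, Reln was at 2.65 in rostral libraries, where the single control is assumed to vary like the knockout libraries; in the fit of separate libraries Reln was at 0.97, Trp73 at 2.10, Lhx5 at 2.11 and Calb2 at 0.026; between caudal and rostral, Reln was at 0.24, Trp73 at 1.35, Lhx1 at 1.31, Lhx5 at 1.11, Ndnf at 0.24, Nxph4 at -0.031 and Car10 at 0.87.

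With the titled embryo as a replicate block, 0 genes and 0 members were called between caudal and rostral and for the interaction, and Reln was at -0.91 (edgeR adjusted p = 0.913). The titled pairing is not borne out by the values, so this fit rests on the titles alone. Cplx3, near 0, was not testable at this depth. Reln, with 1222 to 17825 counts per library, had an SE of 0.49 in the sums, against 0.39 for Lhx1 and 0.52 for Lhx5, which had far fewer counts.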

Other observations

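The ratio of Reln to Trp73 was not constant. In CPM it was 48.1, 25.7 and 22.1 in knockout rostral 5, 2 and 7, 22.5, 61.4 and 28.4 in knockout caudal 5, 2 and 7, 43.6, 28.2 and 136 in control rostral 1, 3 and 9, and 25.6, 52.3 and 23.7 in control caudal 1, 3 and 9. The 7 libraries with a ratio of 28.4 or less had Nr2f1 at 205 CPM or more, and the 5 with a ratio of 43.6 or more had Nr2f1 at 97.1 CPM or less. The ratio of Ndnf to Trp73 was 2.07 to 5.76 in knockout and 1.20 to 8.56 in control libraries, with its highest values in the same 2 libraries as that of Reln to Trp73, knockout caudal 2 and control rostral 9. Trp73 had only 21 and 9 counts in these 2 libraries. Both ratios divide by it, so their shared maxima are not separate observations.

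Reln and Ndnf are also transcribed by GABAergic interneurons, whereas Trp73 is not known as an interneuron gene. Summed over 13 interneuron markers, the level was 289 to 953 CPM in knockout and 421 to 1143 CPM in control libraries. The sums did not follow the ratios throughout. Knockout caudal 2 (953 CPM), control rostral 9 (839 CPM) and control caudal 3 (1143 CPM) had high sums and high ratios. Knockout rostral 7 had a sum of 777 CPM with the lowest ratio, 22.1, while knockout rostral 5 (413 CPM) and control rostral 1 (437 CPM) had low sums with ratios of 48.1 and 43.6. The part of interneuron transcripts in the ratios was not tested.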
